A study of Mus musculus with 24 samples.

Results

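The genes described here are 40 genes of the cell division cycle, chosen by name and divided by role. There are 11 of DNA replication (*Mcm2*, *Mcm3*, *Mcm4*, *Mcm5*, *Mcm6*, *Mcm7*, *Cdt1*, *Gmnn*, *Pcna*, *Tyms* and *Rrm2*) and 22 of mitosis (*Mki67*, *Top2a*, *Ccnb1*, *Ccnb2*, *Ccna2*, *Cdk1*, *Plk1*, *Aurka*, *Aurkb*, *Bub1*, *Bub1b*, *Cdc20*, *Foxm1*, *Birc5*, *Tpx2*, *Kif11*, *Kif23*, *Cenpa*, *Cenpe*, *Nusap1*, *Cdca8* and *Ube2c*). The others are 4 E2f transcription factors (*E2f1*, *E2f2*, *E2f7* and *E2f8*) and 3 cyclins of the G1 phase (*Ccnd1*, *Ccne1* and *Ccne2*). They are 40 of 55401 genes in the count table. The table came from bulk RNA-seq of the maternal-fetal interface (MFI), which the methods of the study also call placentae, of mice on a C57BL/6 background. Wild-type (WT) mice carried no edited allele. C1qtnf6-KO (KO) mice were homozygous for a germline CRISPR/Cas9 knockout of *C1qtnf6*, which encodes the secreted protein CTRP6, and came from 1 supplier strain (C57BL/6JCya). Each genotype was taken at mid-gestation (gestational day, gd10.5), on gd14.5 and, nearer to term, on gd16.5 and gd19.5, untreated, with 3 libraries per genotype and stage and 24 in all. No label says whether a library came from 1 animal or from several, so the spread between libraries may be partly technical.

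A cell that divides licenses its replication origins in G1 with the hexameric MCM helicase, which CDT1 loads and geminin (*Gmnn*) blocks from reloading. Cyclin D and cyclin E drive the passage into S phase, where the activators E2F1 and E2F2 switch on replication genes and the atypical repressors E2F7 and E2F8 later switch them off. Mitosis then requires cyclins A and B with CDK1, the Aurora and Polo-like kinases and the spindle checkpoint, whose genes are switched on in G2 by MYBL2 and FOXM1 with the MuvB complex. Trophoblast giant cells of the mouse placenta leave this cycle for the endocycle, in which DNA is replicated again and again without mitosis, and they enlarge with a polyploid nucleus.

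Library totals ran from 20975717 to 37383108 counts, and no member had fewer than 14 counts in any library, so all 40 were tested in every comparison. *C1qtnf6* was at 64.7 to 168 CPM in WT libraries and at 0.0341 to 2.05 CPM in KO libraries, as the labels require. CPM are counts scaled to a common library size, here with TMM factors over all 24 libraries. One library stood apart from its group, KO gd10.5 replicate 2, in which the summed level of 8 junctional zone trophoblast markers was 13792 CPM against 954 to 2282 CPM in the other gd10.5 libraries.

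Between gd10.5 and gd19.5 the MFI lost most of its cell cycle transcripts, and the median mitosis gene lost more than the median replication gene. The 40 genes together took 0.287% to 0.408% of all counts in the 6 libraries of gd10.5 and 0.0832% to 0.114% by gd14.5. Their share was 0.0331% to 0.0543% in libraries of gd16.5 and 0.0394% to 0.0453% in those of gd19.5. In the first 3 stages the ranges did not overlap, and gd19.5 lay within the range of gd16.5. In both genotypes 39 of the 40 genes had their highest mean at gd10.5, the exception being *Ccnd1*, which was highest at gd14.5. In WT mice 39 of 40 genes were lower at gd19.5 than at gd10.5 (edgeR quasi-likelihood test, Benjamini-Hochberg adjusted p under 0.05, which defines a changed, or called, gene throughout). The 39 stand against 62.7% of all genes changed, where 32.2% of all 19299 genes tested were lower. KO mice likewise had 39 lower genes against 61.4% of all genes changed and 31.6% lower, and these were the same 39. Bulk RNA cannot tell apart fewer cycling cells from less RNA of these genes in each cell.

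The classes parted as gestation went on. Taking in each library the median over a class of log2 CPM relative to the WT gd10.5 mean of each gene (pseudocount 0.5), WT replication genes stood at -1.16 ± 0.04 by gd14.5, -1.79 ± 0.08 by gd16.5 and -1.87 ± 0.09 by gd19.5 (mean ± SD, n = 3). Mitosis genes stood at -1.52 ± 0.29, -2.95 ± 0.15 and -3.34 ± 0.14 in the same libraries. The difference of mitosis minus replication widened from -0.02 ± 0.04 at gd10.5 through -0.37 ± 0.25 and -1.16 ± 0.19 to -1.47 ± 0.09 at gd19.5. KO libraries gave 0.04 ± 0.12, -0.40 ± 0.17, -1.21 ± 0.10 and -1.62 ± 0.04 for the same 4 stages. These class levels are descriptions of genes chosen by name and carry no test.

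**Figure D1:**
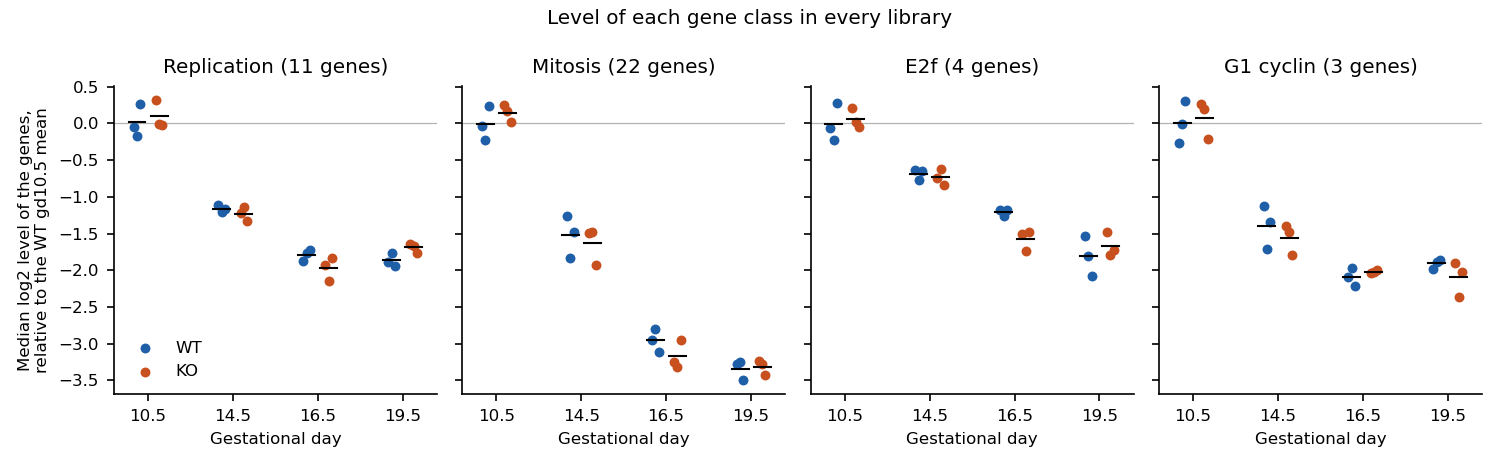
Median log2 level of the genes of each class in every library, relative to the WT gd10.5 mean of each gene, against gestational day, with WT in blue, KO in orange and group means as black bars. Mitosis genes end near -3.34 and replication genes near -1.87 in WT libraries of gd19.5, and most of the replication loss is reached by gd16.5.

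Nearly every member fell in the first of the 3 stage intervals. From gd10.5 to gd14.5, the interval before gd14.5, all 40 genes changed in WT mice, 39 of them lower and *Ccnd1* higher, where 54% of all genes tested changed and 27.8% were lower. The median log2 fold change was -1.19 for replication, -1.54 for mitosis, -0.74 for the E2f genes and -1.41 for the G1 cyclins, with -0.02 over all genes tested. KO mice had 39 changed genes, 38 lower and *Ccnd1* higher, against 51.1% of all genes changed and 26.4% lower, with *E2f8* the gene that missed the threshold at -0.36 (SE 0.16, adjusted p = 0.0619). Replication genes ranged in WT mice from *Rrm2* at -2.66 (SE 0.38, adjusted p = 1.15e-05) to *Pcna* at -0.88 (SE 0.09, adjusted p = 3.12e-07). Mitosis genes ranged from *Birc5*, a subunit of the chromosomal passenger complex, at -2.10 (SE 0.18, adjusted p = 8.21e-08) to *Nusap1*, a microtubule-bundling protein of the spindle, at -0.90 (SE 0.18, adjusted p = 0.000337). The same 4 genes were the extremes of their classes in KO mice, at -2.46, -0.96, -2.35 and -1.10.

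The interval from gd14.5 to gd16.5 took mitosis genes down again by about as much, and replication genes by less. This interval is shorter than the one before it, and the falls are compared per interval and not per day. In WT mice 37 of 40 genes were lower and none was higher, against 18.1% of all genes changed and 8.37% lower. With an absolute log2 fold change over 1 also required, 22 were called against 5.09% of all genes. All 22 mitosis genes fell, with a median log2 fold change of -1.55, and 9 of 11 replication genes fell, with a median of -0.66 beside -0.02 over all genes tested. The genes that did not pass the test were *Gmnn* at -0.09 (SE 0.14, adjusted p = 0.706), *Rrm2* at -0.75 (SE 0.36, adjusted p = 0.159) and *E2f2* at -0.52 (SE 0.24, adjusted p = 0.134). In KO mice 39 genes were lower against 23.6% of all genes changed and 11.6% lower, and *Gmnn* at 0.10 (SE 0.14, adjusted p = 0.638) was the one that did not pass. Class medians in KO mice were -1.62 for mitosis and -0.83 for replication. *Mcm5* was the lowest replication gene in both genotypes, at -1.90 (SE 0.22, adjusted p = 8.62e-06) in WT and -2.22 (SE 0.22, adjusted p = 1.6e-06) in KO mice. The lowest mitosis gene was *Ccna2* at -2.12 (SE 0.22, adjusted p = 2.73e-06) in WT mice and *Aurkb* at -2.18 (SE 0.25, adjusted p = 6.95e-06) in KO mice. The highest was *Ube2c* at -0.66 (SE 0.17, adjusted p = 0.00889) in WT and *Aurka* at -1.07 (SE 0.18, adjusted p = 0.000365) in KO mice.

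Little moved from gd16.5 to gd19.5. In WT mice 8 of 40 genes changed, against 4.64% of all genes changed and 2.67% lower: *Mki67*, *Top2a*, *Tpx2*, *Kif11*, *Ube2c*, *E2f2* and *E2f8* were lower and *Ccnd1* was higher. The count moved with single libraries, and leaving out any one library of these groups gave between 1 and 5 genes, the lowest being without WT gd19.5 replicate 3. With an absolute log2 fold change over 1 also required, 1 gene was called in WT mice (*E2f2*) against 1.49% of all genes, and 1 in KO mice (*Ccnd1*) against 2.19%. In KO mice 2 genes changed against 5.98% of all genes changed and 2.96% lower, *Cdk1* lower at -0.59 (SE 0.17, adjusted p = 0.0457) and *Ccnd1* higher at 1.15 (SE 0.20, adjusted p = 0.00372). *Cdk1* was lost from the calls when any of the 6 libraries was left out. No replication gene changed in either genotype: in WT mice they ranged from *Mcm5* at -0.44 (SE 0.23, adjusted p = 0.3) to *Mcm6* at 0.25 (SE 0.11, adjusted p = 0.196). In KO mice they ranged from *Gmnn* at -0.16 (SE 0.14, adjusted p = 0.534) to *Mcm4* at 0.30 (SE 0.14, adjusted p = 0.206). With total-count scaling the KO rise of *Mcm4* was called (adjusted p = 0.0496). Among mitosis genes *Ube2c* was lowest in WT mice at -0.88 (SE 0.18, adjusted p = 0.00861). *Foxm1*, the transcription factor of G2 genes, was highest in both, at 0.24 (SE 0.14, adjusted p = 0.35) in WT and 0.19 (SE 0.14, adjusted p = 0.47) in KO mice. WT and KO calls shared *Ccnd1* alone, which was 12.5% of the 8 WT calls and 50% of the 2 KO calls, where over all genes tested the shared calls were 30.5% and 23.7%.

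Replication genes differed widely in how much of their level was left. As a percent of the gd10.5 mean, the WT mean at gd19.5 ranged from 6.02% for *Mcm5* to 47.5% for *Gmnn*, with a median of 26.2%. The KO mean ranged from 5.51% to 43.1% for the same genes. The 6 MCM subunits form a ring with 1 copy of each, yet their transcripts parted. By gd19.5, 6.02% was left of *Mcm5*, 10.7% of *Mcm3*, 19.8% of *Mcm2*, 27.5% of *Mcm4*, 30.3% of *Mcm7* and 38.2% of *Mcm6* in WT mice. In KO mice the order was the same, at 5.51%, 11.9%, 21.0%, 28.3%, 29.6% and 38.7%. The ratio of *Mcm5* to *Mcm6* CPM within a library was 0.601 to 0.726 over the 6 libraries of gd10.5 and 0.331 to 0.434 over those of gd14.5, then 0.0733 to 0.167 by gd16.5 and 0.074 to 0.13 by gd19.5. The first 3 ranges did not overlap, and this pair was singled out after its values were seen. Library scaling cancels in such a ratio.

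*Mcm5* (ENSMUSG00000005410, chromosome 8 from 75109569 to 75128439 of GRCm38), a subunit of the helicase, was at 57.1, 51.0 and 78.5 CPM on gd10.5, 21.98, 15.2 and 19.6 CPM on gd14.5, 5.29, 5.31 and 4.62 CPM on gd16.5 and 4.54, 3.81 and 2.88 CPM on gd19.5 in WT libraries. In KO libraries *Mcm5* was at 81.5, 60.9 and 61.9 CPM on gd10.5, 18.4, 18.9 and 14.01 CPM on gd14.5, 3.24, 2.80 and 5.11 CPM on gd16.5 and 3.58, 4.30 and 3.37 CPM on gd19.5. Every library of gd10.5 lay above every library of gd14.5, and those above all of the later ones. From gd10.5 to gd19.5 the log2 fold change of *Mcm5* was -4.05 (SE 0.23, adjusted p = 4.35e-11) in WT and -4.18 (SE 0.23, adjusted p = 2.99e-11) in KO mice, the lowest of the replication class in both. *Mcm2*, another subunit, was at 56.7, 45.4 and 67.6 CPM on gd10.5, 25.5, 25.6 and 28.6 CPM on gd14.5, 12.6, 12.8 and 14.01 CPM on gd16.5 and 11.9, 11.6 and 10.1 CPM on gd19.5 in WT libraries. In KO libraries *Mcm2* was at 68.2, 57.3 and 61.6 CPM on gd10.5, 23.7, 26.0 and 23.0 CPM on gd14.5, 11.6, 11.7 and 13.6 CPM on gd16.5 and 12.6, 14.7 and 12.03 CPM on gd19.5. WT libraries of gd19.5 lay just below those of gd16.5 and KO libraries overlapped, and the change over the whole span was -2.34 (SE 0.13, adjusted p = 1.99e-11) in WT and -2.25 (SE 0.12, adjusted p = 2.93e-11) in KO mice.

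*Cdt1*, the loading factor of the helicase, was at 33.1, 26.8 and 40.4 CPM on gd10.5, 14.8, 14.6 and 14.48 CPM on gd14.5, 9.47, 9.33 and 11.2 CPM on gd16.5 and 8.53, 9.38 and 8.39 CPM on gd19.5 in WT libraries. In KO libraries *Cdt1* was at 47.1, 33.9 and 30.4 CPM on gd10.5, 14.3, 16.52 and 14.97 CPM on gd14.5, 8.32, 7.61 and 9.94 CPM on gd16.5 and 10.2, 10.1 and 10.7 CPM on gd19.5. In both genotypes gd10.5 was highest and gd14.5 lay above the later stages, and in KO mice the gd19.5 libraries lay wholly above those of gd16.5, at 0.26 (SE 0.15, adjusted p = 0.335). *Gmnn*, the inhibitor of CDT1, was at 30.9, 32.3 and 34.4 CPM on gd10.5, 16.1, 13.99 and 17.0 CPM on gd14.5, 16.8, 15.8 and 11.5 CPM on gd16.5 and 15.1, 14.4 and 16.9 CPM on gd19.5 in WT libraries. In KO libraries *Gmnn* was at 39.0, 32.1 and 26.7 CPM on gd10.5, 15.3, 14.4 and 14.1 CPM on gd14.5, 16.8, 14.8 and 15.6 CPM on gd16.5 and 14.9, 11.9 and 15.4 CPM on gd19.5. *Gmnn* fell once, before gd14.5, and its libraries overlapped from then on, while *Cdt1* fell again before gd16.5 at -0.55 (SE 0.15, adjusted p = 0.0154) in WT and -0.83 (SE 0.15, adjusted p = 0.00067) in KO mice. The WT call of *Cdt1* was lost without WT gd16.5 replicate 1 (adjusted p = 0.0621) or replicate 2 (adjusted p = 0.0636), and the sign of the uncalled *Gmnn* value turned without WT gd16.5 replicate 3. The *Cdt1* to *Gmnn* ratio of CPM within a library was 0.83 to 1.21 in libraries of gd10.5, 0.849 to 1.15 by gd14.5, 0.496 to 0.975 by gd16.5 and 0.498 to 0.848 by gd19.5, so that neighbouring stages overlapped. Over the whole span *Gmnn* was the least lowered replication gene, at -1.07 (SE 0.14, adjusted p = 1.44e-06) in WT and -1.22 (SE 0.14, adjusted p = 3.16e-07) in KO mice.

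*Pcna*, the sliding clamp of DNA polymerase, was at 82.8, 91.4 and 87.7 CPM on gd10.5, 50.6, 40.9 and 50.8 CPM on gd14.5, 36.0, 39.4 and 32.6 CPM on gd16.5 and 36.8, 37.7 and 40.5 CPM on gd19.5 in WT libraries. In KO libraries *Pcna* was at 94.0, 79.9 and 86.1 CPM on gd10.5, 46.6, 43.7 and 43.7 CPM on gd14.5, 39.0, 36.0 and 35.6 CPM on gd16.5 and 38.1, 34.3 and 38.1 CPM on gd19.5. *Pcna* had no overlap between gd10.5 and later stages, and stayed at 43.9% of its gd10.5 mean in WT and 42.5% in KO mice. *Rrm2*, the small subunit of ribonucleotide reductase, which makes deoxynucleotides, was at 1249, 1426 and 1128 CPM on gd10.5, 211, 197 and 195 CPM on gd14.5, 89.0, 72.6 and 196 CPM on gd16.5 and 97.8, 91.7 and 87.4 CPM on gd19.5 in WT libraries. In KO libraries *Rrm2* was at 1366, 475 and 1764 CPM on gd10.5, 222, 257 and 177 CPM on gd14.5, 53.7, 58.2 and 102 CPM on gd16.5 and 88.3, 76.2 and 79.2 CPM on gd19.5. *Rrm2* had the most counts of the members on gd10.5, 18.8% to 48.2% of the counts of all 40 genes. KO gd10.5 replicate 2 was far below the other KO libraries of its stage, and WT gd16.5 replicate 3 was far above its own. Per kilobase of exon the WT gd10.5 level of *Rrm2* was 458 ± 54.1 CPM, compared with 36.4 ± 1.80 CPM for *Pcna* and 20.3 ± 2.56 CPM for *Mcm6*. The log2 fold change of *Rrm2* from gd10.5 to gd19.5 was -3.78 (SE 0.40, adjusted p = 1.04e-07) in WT and -3.89 (SE 0.40, adjusted p = 7.95e-08) in KO mice, and without KO gd10.5 replicate 2 the KO value was -4.27. In that library the summed level of 12 NK cell markers was 477 CPM, against 853 to 1251 CPM in the other gd10.5 libraries, and their part in the *Rrm2* value was not tested.

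All 22 mitosis genes fell before gd14.5 and again before gd16.5 in both genotypes. By gd14.5 the WT level left ranged from 23.3% for *Birc5* to 53.7% for *Nusap1*, with a median of 34.4% over the 22 genes. At gd16.5 the median was 10.9%, and at gd19.5 it was 7.24%, from 5.17% for *Ccna2* to 22.8% for *Foxm1*. KO medians were 28.3%, 8.68% and 6.92%. At gd19.5 all 22 genes were under 25% of their gd10.5 mean in both genotypes and 12 were under 10% in each, compared with 5 and 2 of the 11 replication genes. From gd10.5 to gd19.5 the median log2 fold change of the class was -3.79 in WT and -3.86 in KO mice, and 17 of 22 genes in each genotype fell by more than 8-fold, beside 3 of 11 replication genes.

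*Mki67*, the proliferation marker that coats mitotic chromosomes, was at 163, 157 and 209 CPM on gd10.5, 62.1, 46.9 and 54.8 CPM on gd14.5, 17.2, 18.1 and 13.1 CPM on gd16.5 and 10.96, 10.1 and 9.26 CPM on gd19.5 in WT libraries. In KO libraries *Mki67* was at 201, 197 and 176 CPM on gd10.5, 61.3, 66.6 and 46.6 CPM on gd14.5, 12.1, 11.8 and 16.01 CPM on gd16.5 and 12.8, 12.04 and 10.8 CPM on gd19.5. The stages were in the same order in both genotypes, and within WT mice no library of gd19.5 reached a library of gd16.5. Over the whole span the log2 fold change of *Mki67* was -4.12 (SE 0.17, adjusted p = 1.57e-12) in WT and -4.01 (SE 0.17, adjusted p = 2.14e-12) in KO mice. *Top2a*, the topoisomerase that untangles sister chromatids, was at 155, 136 and 182 CPM on gd10.5, 65.6, 42.1 and 57.7 CPM on gd14.5, 16.8, 16.4 and 14.9 CPM on gd16.5 and 11.7, 10.98 and 8.59 CPM on gd19.5 in WT libraries. In KO libraries *Top2a* was at 182, 164 and 151 CPM on gd10.5, 54.2, 55.9 and 40.01 CPM on gd14.5, 11.3, 10.9 and 15.8 CPM on gd16.5 and 10.97, 11.05 and 10.7 CPM on gd19.5. WT libraries again fell at each stage without overlap, whereas KO libraries of gd19.5 overlapped with those of gd16.5. The last WT interval was near the threshold for both genes, at -0.68 (SE 0.16, adjusted p = 0.0225) for *Mki67* and -0.62 (SE 0.18, adjusted p = 0.0475) for *Top2a*. In KO mice it was -0.16 (SE 0.16, adjusted p = 0.61) for *Mki67* and -0.21 (SE 0.18, adjusted p = 0.526) for *Top2a*. Both WT calls were lost without WT gd19.5 replicate 3, the *Mki67* call also without 3 other libraries of these groups and the *Top2a* call without any one of them. Whether the last interval differed between genotypes was not tested for that interval alone.

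*Ccna2* (ENSMUSG00000027715, chromosome 3 from 36564865 to 36572150 of GRCm38), cyclin A2, was at 72.5, 65.2 and 87.4 CPM on gd10.5, 29.1, 18.2 and 21.8 CPM on gd14.5, 5.83, 5.61 and 4.43 CPM on gd16.5 and 4.34, 3.92 and 3.38 CPM on gd19.5 in WT libraries. In KO libraries *Ccna2* was at 90.3, 84.9 and 72.6 CPM on gd10.5, 23.2, 22.8 and 16 CPM on gd14.5, 4.38, 3.42 and 6.66 CPM on gd16.5 and 2.88, 3.85 and 3.202 CPM on gd19.5. All gd10.5 libraries were above all others, and in KO mice the highest library of gd19.5 was above the lowest of gd16.5. *Ccna2* had the largest fall of the mitosis class, -4.27 (SE 0.23, adjusted p = 2.34e-11) in WT and -4.63 (SE 0.24, adjusted p = 1.03e-11) in KO mice. *Ccnb1*, cyclin B1, the partner of CDK1, was at 39.6, 37.7 and 51.7 CPM on gd10.5, 14.1, 10.1 and 12.5 CPM on gd14.5, 3.60, 4.20 and 3.11 CPM on gd16.5 and 2.23, 2.69 and 1.96 CPM on gd19.5 in WT libraries. In KO libraries *Ccnb1* was at 50.1, 47.0 and 40.8 CPM on gd10.5, 13.4, 11.6 and 9.30 CPM on gd14.5, 2.39, 1.97 and 3.33 CPM on gd16.5 and 2.53, 2.18 and 2.01 CPM on gd19.5. WT stages lay apart from each other and the last KO stages overlapped, with a change over the whole span of -4.22 (SE 0.20, adjusted p = 5.23e-12) in WT and -4.36 (SE 0.20, adjusted p = 3.9e-12) in KO mice. *Cdk1*, the mitotic kinase, was at 71.6, 68.0 and 78.6 CPM on gd10.5, 25.9, 16.4 and 23.3 CPM on gd14.5, 7.19, 7.60 and 5.35 CPM on gd16.5 and 5.18, 5.53 and 5.34 CPM on gd19.5 in WT libraries. In KO libraries *Cdk1* was at 83.2, 74.2 and 68.1 CPM on gd10.5, 21.3, 20.5 and 15.9 CPM on gd14.5, 6.33, 6.35 and 8.48 CPM on gd16.5 and 4.89, 4.40 and 4.74 CPM on gd19.5. In KO mice the gd19.5 libraries of *Cdk1* lay wholly below those of gd16.5, and in WT mice these stages overlapped, at -0.33 (SE 0.17, adjusted p = 0.284).

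*Aurkb*, the Aurora kinase of the chromosomal passenger complex, was at 14.01, 12.1 and 18.0 CPM on gd10.5, 5.77, 3.84 and 4.71 CPM on gd14.5, 1.65, 1.72 and 1.27 CPM on gd16.5 and 1.24, 1.12 and 0.584 CPM on gd19.5 in WT libraries. In KO libraries *Aurkb* was at 19.98, 15.7 and 16.1 CPM on gd10.5, 4.85, 5.54 and 3.45 CPM on gd14.5, 0.797, 0.986 and 1.28 CPM on gd16.5 and 0.83, 0.921 and 0.749 CPM on gd19.5. WT gd19.5 replicate 3 held the lowest value of any member in any library, and KO libraries of gd16.5 and gd19.5 overlapped. *Aurkb* changed by -3.89 (SE 0.26, adjusted p = 2.3e-10) in WT and -4.36 (SE 0.26, adjusted p = 6.82e-11) in KO mice from gd10.5 to gd19.5. *Ube2c*, the ubiquitin-conjugating enzyme of the anaphase-promoting complex, was at 37.2, 27.1 and 36.8 CPM on gd10.5, 13.6, 10.7 and 10.6 CPM on gd14.5, 8.18, 7.47 and 6.37 CPM on gd16.5 and 4.34, 4.07 and 3.59 CPM on gd19.5 in WT libraries. In KO libraries *Ube2c* was at 40.98, 35.0 and 39.6 CPM on gd10.5, 11.6, 11.1 and 9.57 CPM on gd14.5, 5.38, 3.67 and 5.11 CPM on gd16.5 and 5.51, 3.72 and 5.25 CPM on gd19.5. In WT mice *Ube2c* fell in each interval with no overlap between stages. In KO mice it reached its lower level by gd16.5, at -1.20 (SE 0.17, adjusted p = 5.99e-05), and its gd19.5 libraries overlapped those of gd16.5, with a change of 0.04 (SE 0.18, adjusted p = 0.924). The WT fall before gd19.5 was lost without WT gd19.5 replicate 3 (adjusted p = 0.0607) and the one before gd16.5 without WT gd14.5 replicate 1 (adjusted p = 0.0637).

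**Figure D2:**
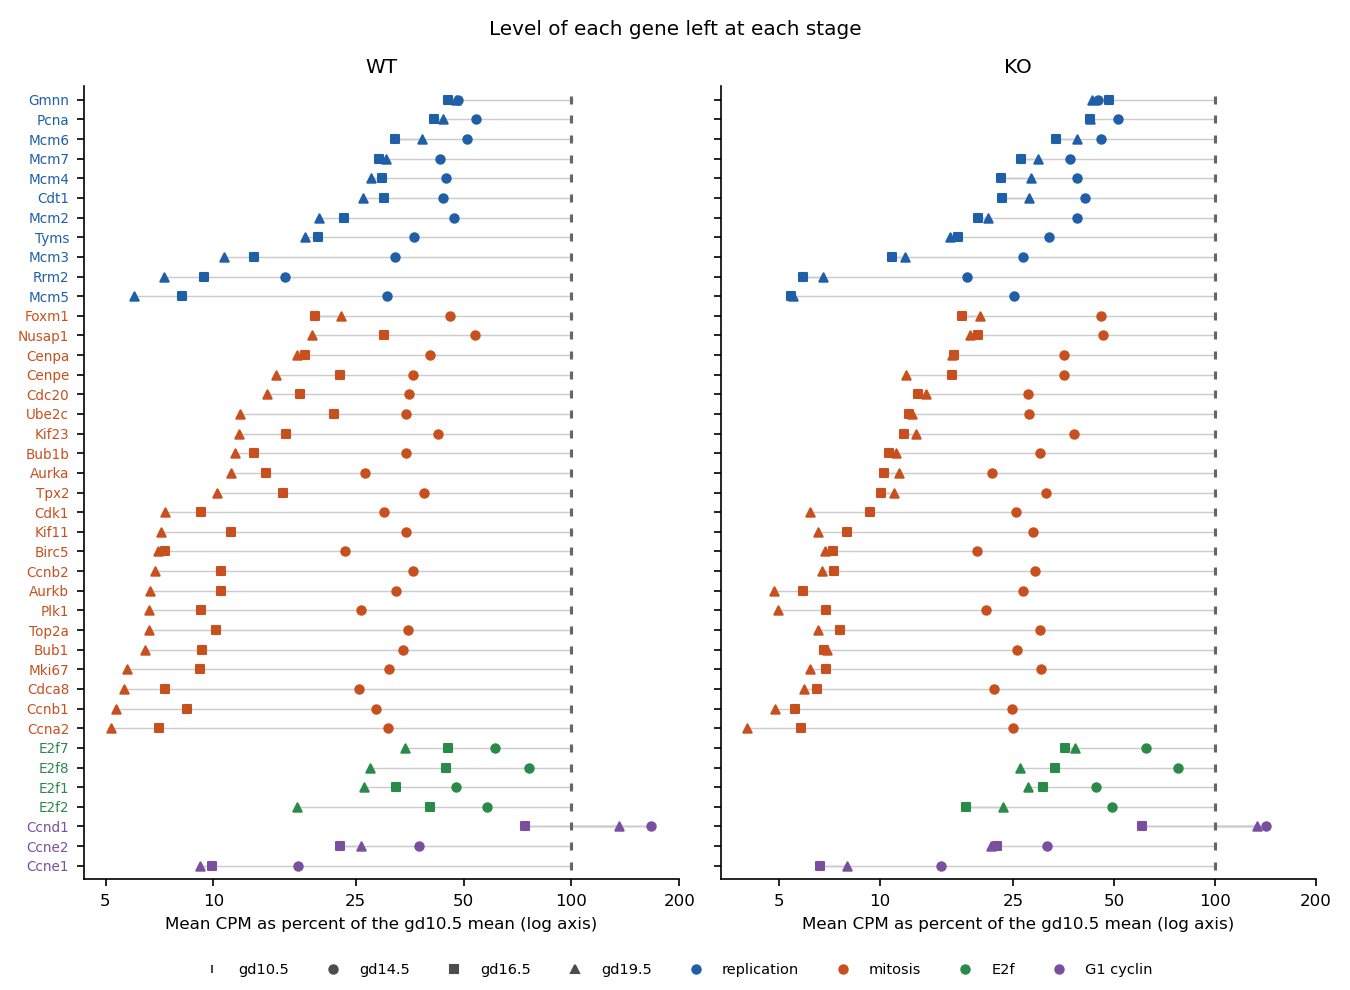
Mean CPM of each of the 40 genes at gd14.5, gd16.5 and gd19.5 as a percent of its gd10.5 mean, on a log axis, in WT (left) and KO mice (right), with genes coloured by class. In WT mice mitosis genes end between 5.17% and 22.8%, replication genes spread from 6.02% to 47.5%, and Ccnd1 alone lies above 100%.

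The median fall of the E2f genes was smaller than that of the mitosis genes, at -0.74 before gd14.5 and -0.54 before gd16.5 in WT mice. *E2f8* (ENSMUSG00000046179, chromosome 7 from 48866429 to 48881596 of GRCm38), an atypical repressor that is abundant in trophoblast, was at 121, 119 and 140.1 CPM on gd10.5, 103, 92.1 and 94.4 CPM on gd14.5, 49.8, 51.4 and 68.5 CPM on gd16.5 and 39.4, 36.4 and 28.1 CPM on gd19.5 in WT libraries. In KO libraries *E2f8* was at 142, 123 and 118 CPM on gd10.5, 103, 106 and 88.6 CPM on gd14.5, 44.1, 32.3 and 51.6 CPM on gd16.5 and 40.1, 30.2 and 30.0 CPM on gd19.5. By gd14.5, 76.1% of the WT and 77.7% of the KO level was left, the highest share of the 4 factors, and the gd10.5 and gd14.5 libraries lay near each other without overlap. The WT fall of *E2f8* before gd14.5, at -0.39 (SE 0.16, adjusted p = 0.043), was lost without any one of the 6 libraries and by DESeq2 (adjusted p = 0.0512). *E2f7*, the other atypical repressor, was at 46.1, 40.04 and 60.9 CPM on gd10.5, 29.8, 28.8 and 31.2 CPM on gd14.5, 21.5, 20.4 and 24.4 CPM on gd16.5 and 18.3, 17.8 and 14.4 CPM on gd19.5 in WT libraries. In KO libraries *E2f7* was at 59.9, 48.6 and 41.7 CPM on gd10.5, 29.1, 34.5 and 29.8 CPM on gd14.5, 16.6, 16.3 and 20.6 CPM on gd16.5 and 20.5, 19.3 and 17.6 CPM on gd19.5. *E2f7* kept 34.4% of its WT and 38.2% of its KO level at gd19.5, the most of the 4. From gd10.5 to gd19.5 the log2 fold change was -1.87 (SE 0.17, adjusted p = 1.05e-08) for *E2f8* and -1.54 (SE 0.15, adjusted p = 3.84e-08) for *E2f7* in WT mice. In KO mice it was -1.93 (SE 0.17, adjusted p = 6.75e-09) for *E2f8* and -1.39 (SE 0.15, adjusted p = 1.39e-07) for *E2f7*. Of the exon bases of *E2f8*, 11.2% also belong to *Gm2788* on the opposite strand. The authors counted with the default settings of featureCounts, which use no strand and leave out a read that overlaps exons of more than 1 gene, so these values may miss reads of the shared bases. The same holds for 12.5% of *Ccna2* (*Exosc9*) and 7.25% of *Mcm7* (*Ap4m1*), and for 22.8% of *Ube2c* (*Tnnc2*).

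*E2f1*, an activator of S phase genes, was at 9.91, 8.51 and 11.8 CPM on gd10.5, 5.03, 4.64 and 4.76 CPM on gd14.5, 4.05, 2.65 and 3.07 CPM on gd16.5 and 3.51, 2.39 and 2.09 CPM on gd19.5 in WT libraries. In KO libraries *E2f1* was at 11.7, 10.2 and 10.49 CPM on gd10.5, 5.26, 4.59 and 4.40 CPM on gd14.5, 3.49, 3.70 and 2.78 CPM on gd16.5 and 3.19, 3.103 and 2.69 CPM on gd19.5. *E2f1* fell before gd14.5, at -1.06 (SE 0.17, adjusted p = 4.85e-05) in WT and -1.18 (SE 0.17, adjusted p = 2e-05) in KO mice, and gd16.5 and gd19.5 overlapped. *E2f2*, a related activator, was at 5.85, 5.59 and 9.01 CPM on gd10.5, 4.26, 3.62 and 4.00 CPM on gd14.5, 3.31, 2.697 and 2.24 CPM on gd16.5 and 1.31, 1.53 and 0.668 CPM on gd19.5 in WT libraries. In KO libraries *E2f2* was at 7.73, 6.97 and 6.71 CPM on gd10.5, 3.71, 3.71 and 3.101 CPM on gd14.5, 1.34, 1.11 and 1.41 CPM on gd16.5 and 2.10, 1.23 and 1.67 CPM on gd19.5. In WT mice the gd16.5 libraries of *E2f2* lay between those of gd14.5 and gd19.5, without touching either. In KO mice the gd16.5 libraries overlapped with those of gd19.5. *E2f2* fell before gd14.5 in both genotypes, in WT mice not past the threshold without WT gd10.5 replicate 3 (adjusted p = 0.0606). Of the later intervals, it passed the test from gd14.5 to gd16.5 in KO, at -1.45 (SE 0.25, adjusted p = 0.000378), and from gd16.5 to gd19.5 in WT, at -1.22 (SE 0.26, adjusted p = 0.0112), the latter lost without WT gd19.5 replicate 3 (adjusted p = 0.0686). Per kilobase of exon, WT gd10.5 levels were 23.3 ± 2.16 CPM for *E2f8*, 5.44 ± 1.19 for *E2f7*, 3.19 ± 0.525 for *E2f1* and 1.40 ± 0.39 for *E2f2* (mean ± SD, n = 3). By gd19.5 the same order held, at 6.36 ± 1.08, 1.87 ± 0.237, 0.844 ± 0.237 and 0.24 ± 0.0921 CPM per kilobase. The ratio of *E2f8* to *E2f1* CPM within a library was 11.2 to 13.97 in libraries of gd10.5, 19.6 to 23.1 by gd14.5, 8.74 to 22.3 by gd16.5 and 9.74 to 15.2 by gd19.5, and the gd14.5 range lay above those of gd10.5 and gd19.5.

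The 3 G1 cyclins went separate ways. *Ccne1*, cyclin E1, which brings cells into S phase and serves the endocycle, was at 30.5, 31.9 and 51.6 CPM on gd10.5, 7.79, 5.31 and 6.52 CPM on gd14.5, 4.38, 3.45 and 3.50 CPM on gd16.5 and 3.71, 3.36 and 3.38 CPM on gd19.5 in WT libraries. In KO libraries *Ccne1* was at 51.3, 42.2 and 34.0 CPM on gd10.5, 7.15, 7.16 and 5.09 CPM on gd14.5, 2.74, 2.43 and 3.28 CPM on gd16.5 and 3.50, 3.58 and 3.13 CPM on gd19.5. No gd10.5 library overlapped with a later one, and the fall to gd14.5 was -2.54 (SE 0.20, adjusted p = 3.69e-08) in WT and -2.71 (SE 0.20, adjusted p = 2.44e-08) in KO mice. *Ccne2*, cyclin E2, was at 45.8, 54.4 and 63.2 CPM on gd10.5, 24.5, 16.1 and 20.9 CPM on gd14.5, 12.2, 13.4 and 11.3 CPM on gd16.5 and 13.3, 14.3 and 14.52 CPM on gd19.5 in WT libraries. In KO libraries *Ccne2* was at 64.8, 61.7 and 46.5 CPM on gd10.5, 20.2, 19.1 and 15.2 CPM on gd14.5, 12.8, 12.9 and 13.2 CPM on gd16.5 and 14.1, 10.1 and 12.9 CPM on gd19.5. *Ccne2* kept 25.8% of its WT level at gd19.5 where *Ccne1* kept 9.16%. Of the exon bases of *Ccne2*, 17.4% are shared with *Ints8* on the opposite strand.

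*Ccnd1* (ENSMUSG00000070348, chromosome 7 from 144929931 to 144939925 of GRCm38), cyclin D1, which responds to growth signals, was at 10.9, 13.3 and 16.6 CPM on gd10.5, 26.3, 20.5 and 21.5 CPM on gd14.5, 9.26, 10.04 and 10.9 CPM on gd16.5 and 21.8, 18.9 and 14.98 CPM on gd19.5 in WT libraries. In KO libraries *Ccnd1* was at 13.4, 17.1 and 11.5 CPM on gd10.5, 20.4, 20.5 and 18.8 CPM on gd14.5, 10.2, 7.61 and 7.62 CPM on gd16.5 and 14.1, 24.5 and 17.4 CPM on gd19.5. It was the one member to rise before gd14.5, at 0.74 (SE 0.19, adjusted p = 0.00315) in WT and 0.51 (SE 0.19, adjusted p = 0.0344) in KO mice. *Ccnd1* then fell before gd16.5, at -1.18 (SE 0.20, adjusted p = 0.000361) in WT and -1.24 (SE 0.20, adjusted p = 0.0002) in KO mice, and rose again before gd19.5, at 0.88 (SE 0.20, adjusted p = 0.0166) in WT and 1.15 (SE 0.20, adjusted p = 0.00372) in KO mice. At gd16.5 all 6 libraries were below all 12 libraries of gd14.5 and gd19.5, and also below every gd10.5 library, except that WT gd10.5 replicate 1 lay just under WT gd16.5 replicate 3. The KO rise before gd14.5 was lost without KO gd10.5 replicate 1 or 3, without KO gd14.5 replicate 1 or 2, and with total-count scaling (adjusted p = 0.132). A fit of the 12 KO libraries alone lost this KO call too. The WT rise before gd19.5 was lost without WT gd16.5 replicate 1 or 3 or WT gd19.5 replicate 1 or 2. Of the exon bases of *Ccnd1*, 23.4% are shared with *LTO1* on the opposite strand, and reads of these bases may likewise be missing.

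**Figure D3:**
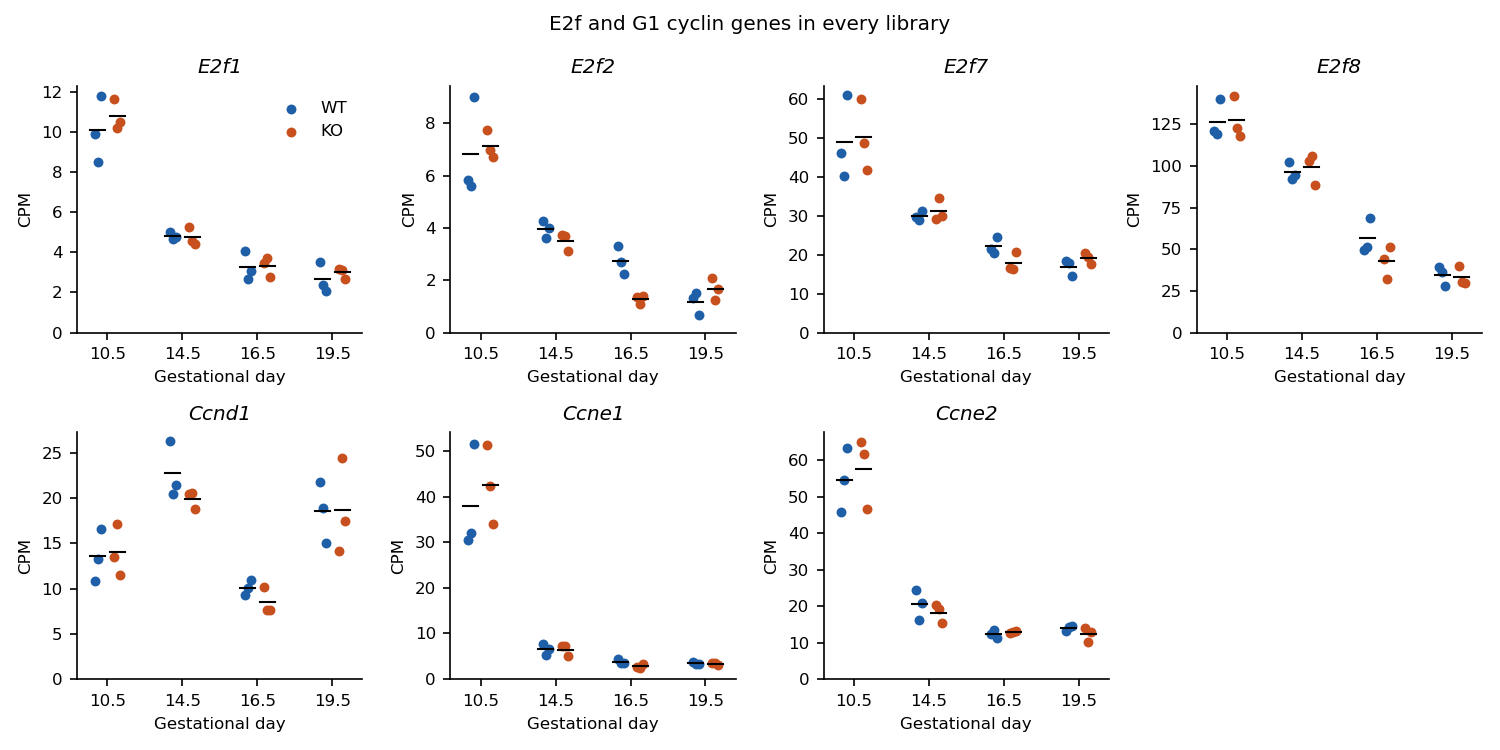
CPM of the 4 E2f genes and 3 G1 cyclins in each of the 24 libraries against gestational day, with WT in blue, KO in orange and group means as black bars. Ccnd1 is high at gd14.5 and gd19.5 and low at gd16.5, Ccne1 drops before gd14.5, and the 3 KO libraries of E2f2 at gd16.5 lie below the 3 WT libraries.

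The promoters of the classes carry some of the searched letters in different shares. RefSeq promoter windows of the GRCm38.p6 build, 250 bases before to 50 after a gene's start, were matched by symbol for 32 of the 40 members, in 34 windows because *E2f2* and *Mcm7* have 2 each. *Ccna2*, *Gmnn*, *Foxm1*, *Tpx2*, *Aurkb*, *Ccnd1*, *Ccne2* and *Mcm4* were not matched. Windows were searched on both strands for the E2F letters TTCCCGC or TTGGCGC, for the letters of the cell cycle genes homology region (CHR) TTTGAA or TTCGAA, and for CCAAT, the letters of the NF-Y box. The E2F letters GCGCCAA, which are TTGGCGC read on the other strand, can share bases with CCAAT, which occurred in 1 window each of *Mcm7*, *Ccnb1* and *E2f8*. CHR letters stood in 14 of 18 matched mitosis genes (77.8%), in 2 of 9 replication genes and in 21.7% of all 27025 genes of the table. E2F letters stood in 5 of 9 replication genes (55.6%), in 3 of the 4 E2f genes, in 3 of 18 mitosis genes (16.7%) and in 7.79% of all genes. CCAAT stood in 16 of 18 mitosis genes (88.9%), 7 of 9 replication genes (77.8%) and 41.1% of all genes. Of the 4 E2f genes, 2 held CHR letters and 3 held CCAAT. Every mitosis gene with CHR letters also had CCAAT, a pairing found in 9.65% of all genes. A match of letters is a description and not a shown binding site.

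**Figure D4:**
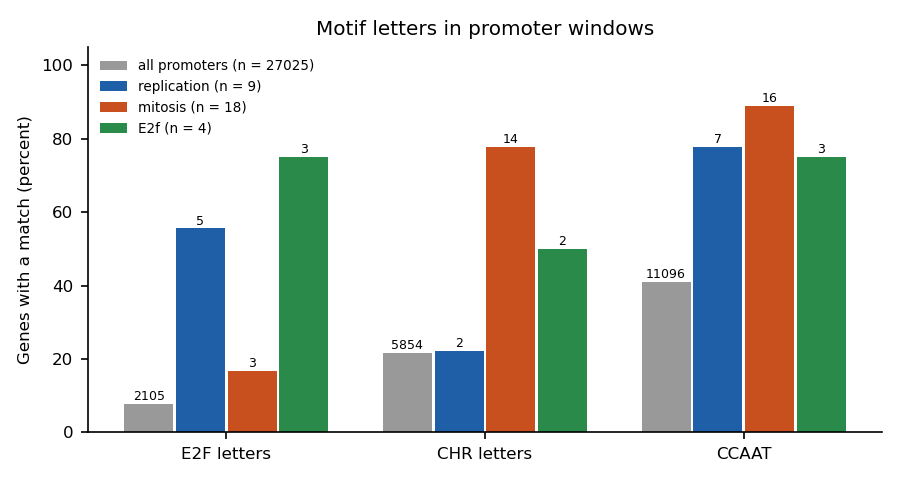
Percent of genes whose RefSeq promoter window holds the E2F, CHR or CCAAT letters on either strand, for all genes of the table (grey) and for the matched replication, mitosis and E2f genes, with the number of genes above each bar. CHR letters stand out in the mitosis bar at 77.8% and E2F letters in the replication and E2f bars at 55.6% and 75%.

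The 250 bases before the start of 7 members show these letters in place, in capitals on an otherwise lower-case sequence, written 5′ to 3′ in the direction of transcription. *Mcm5*, at chr8:75109259-75109508 on the plus strand, and *Mcm6*, at chr1:128359706-128359955 on the minus strand, are shown as the least and the most retained MCM subunits, and both hold 2 E2F matches, with no CHR match. *Ube2c*, at chr2:164769679-164769928 on the plus strand, *Cdc20*, the activator of the anaphase-promoting complex, at chr4:118437344-118437593 on the minus strand, and *Kif11*, a spindle motor, at chr19:37376132-37376381 on the plus strand, are shown as mitosis genes with CHR letters close before the start and CCAAT upstream of them. *E2f7*, at chr10:110745189-110745438 on the plus strand, and *E2f8*, at chr7:48881597-48881846 on the minus strand, are shown as the repressors of the E2f class, with 3 and 1 E2F matches. The *E2f8* sequence also holds 1 CHR match. The *Cdc20* sequence also holds CCAAT between its CHR letters and the start.
Mcm5: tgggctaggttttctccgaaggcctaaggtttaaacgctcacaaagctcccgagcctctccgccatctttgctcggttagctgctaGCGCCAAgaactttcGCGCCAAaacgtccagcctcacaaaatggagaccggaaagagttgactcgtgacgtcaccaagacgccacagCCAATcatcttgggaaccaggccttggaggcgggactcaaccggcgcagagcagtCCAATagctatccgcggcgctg
Mcm6: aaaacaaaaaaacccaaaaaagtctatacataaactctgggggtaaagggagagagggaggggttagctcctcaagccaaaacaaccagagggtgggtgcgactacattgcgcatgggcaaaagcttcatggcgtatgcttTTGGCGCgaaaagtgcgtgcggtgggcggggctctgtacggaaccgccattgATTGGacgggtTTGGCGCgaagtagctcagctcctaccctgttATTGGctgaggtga
Ube2c: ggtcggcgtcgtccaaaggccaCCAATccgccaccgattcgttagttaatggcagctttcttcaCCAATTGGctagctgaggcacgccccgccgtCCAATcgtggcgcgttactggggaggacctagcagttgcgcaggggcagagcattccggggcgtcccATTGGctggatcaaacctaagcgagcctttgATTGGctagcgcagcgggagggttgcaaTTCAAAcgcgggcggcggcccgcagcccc
Cdc20: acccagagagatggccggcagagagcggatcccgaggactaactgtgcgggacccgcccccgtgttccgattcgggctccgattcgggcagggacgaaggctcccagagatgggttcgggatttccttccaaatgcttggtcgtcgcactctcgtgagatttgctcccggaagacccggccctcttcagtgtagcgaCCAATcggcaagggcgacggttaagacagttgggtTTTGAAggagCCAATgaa
Kif11: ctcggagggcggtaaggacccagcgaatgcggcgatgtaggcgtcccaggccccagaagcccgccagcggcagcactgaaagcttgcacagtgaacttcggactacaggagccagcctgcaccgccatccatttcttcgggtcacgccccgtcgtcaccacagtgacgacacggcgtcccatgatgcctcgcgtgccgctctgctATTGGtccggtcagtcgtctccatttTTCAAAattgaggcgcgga
E2f7: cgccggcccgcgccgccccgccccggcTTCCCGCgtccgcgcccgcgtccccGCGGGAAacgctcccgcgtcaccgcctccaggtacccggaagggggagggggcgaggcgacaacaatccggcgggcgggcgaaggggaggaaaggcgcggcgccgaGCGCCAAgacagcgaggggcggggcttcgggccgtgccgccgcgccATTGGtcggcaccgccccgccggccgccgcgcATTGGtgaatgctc
E2f8: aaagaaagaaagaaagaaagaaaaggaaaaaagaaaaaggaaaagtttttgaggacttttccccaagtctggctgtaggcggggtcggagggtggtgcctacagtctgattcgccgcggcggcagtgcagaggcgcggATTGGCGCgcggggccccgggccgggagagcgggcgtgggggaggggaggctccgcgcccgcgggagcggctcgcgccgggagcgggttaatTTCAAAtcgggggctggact
Among the 14 mitosis genes with CHR letters, 13 had a match within 60 bases of the start, on either side of it. The retained *Mcm6* and the strongly lowered *Mcm5* did not differ in which of the 3 kinds of letters they held.

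Further genes of the same pathways, taken from lists and not for how they moved, followed the members in part. Of 42 other mitosis genes, 41 fell from gd10.5 to gd14.5 in WT mice and 38 from gd14.5 to gd16.5, and from gd10.5 to gd19.5 their median log2 fold change was -3.29. Of all genes tested, 27.8% and 8.37% were lower in these intervals. *Pttg1*, securin, was the one mitosis gene of this list to rise over the whole span, at 0.53 (SE 0.12, adjusted p = 0.0006) in WT and 0.61 (SE 0.12, adjusted p = 0.000156) in KO mice. Of 40 other replication genes, 32 and 26 fell in these intervals, with a median of -1.42 over the whole span in WT mice, where 34 were lower and 1, *Gins3*, was higher. Of the 14 other E2f, pocket protein and MuvB genes, 7 were lower and 3 higher at gd19.5 than at gd10.5 in WT mice, with a median of -0.22, the higher ones being *Tfdp2*, *Rb1* and *Lin9*. Of 20 cyclin-dependent kinase, inhibitor and checkpoint genes, 11 were lower and 2 higher, with a median of -0.45. Over the whole span 62.7% of all genes changed and 32.2% were lower, beside 71.4% and 65% changed in the last 2 lists. Members and lists were chosen with earlier results of these data known, so these counts describe the genes and are no independent test.

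*Mybl2*, the B-Myb partner of MuvB, was at 23.99 ± 5.44 CPM on gd10.5, 7.63 ± 0.727 CPM on gd14.5, 5.21 ± 0.631 CPM on gd16.5 and 7.36 ± 0.421 CPM on gd19.5 in WT mice (mean ± SD, n = 3), a change over the span of -1.70 (SE 0.18, adjusted p = 8.29e-08). *Chek1*, the checkpoint kinase of S phase, went from 15.7 ± 1.68 to 2.92 ± 0.167 CPM, at -2.42 (SE 0.18, adjusted p = 9.95e-10). *Cdkn1c*, the inhibitor p57 that is known to start the endocycle of giant cells, was at 396 ± 75.3 CPM at gd10.5 and 409 ± 32.0 CPM at gd19.5, with no change past the threshold in any interval of either genotype. *Cdkn1a*, the inhibitor p21, was lower at gd19.5 at -0.85 (SE 0.20, adjusted p = 0.00124), and *Fzr1*, the Cdh1 activator of the anaphase-promoting complex, was lower by less, at -0.46 (SE 0.10, adjusted p = 0.000751). *E2f4*, a repressor of resting cells, was at -0.12 (SE 0.09, adjusted p = 0.228), *E2f3* at -0.74 (SE 0.14, adjusted p = 0.000125) and *Rbl1*, the pocket protein p107, at -0.07 (SE 0.08, adjusted p = 0.463). KO mice gave -1.83 for *Mybl2*, -2.68 for *Chek1*, 0.09 for *Cdkn1c*, -0.75 for *Cdkn1a*, -0.43 for *Fzr1*, -0.07 for *E2f4*, -0.79 for *E2f3* and -0.14 for *Rbl1*.

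Markers of the cell types in the MFI moved over the same stages. The summed CPM of 12 NK cell markers was 853 to 1251 in WT libraries of gd10.5 and 181 to 249 by gd14.5, and 107 to 126 by gd16.5 and 67.7 to 73.9 by gd19.5. KO libraries had 477 to 1247, 174 to 297, 89.0 to 110.5 and 68.0 to 83.5 CPM of them in the same order of stages. The sum of 8 decidual stroma markers in WT libraries was 7822 to 15477 CPM on gd10.5 and 5371 to 7237 CPM on gd19.5, without overlap, whereas KO libraries overlapped, with 4102 to 13763 CPM on gd10.5 and 4585 to 5436 CPM on gd19.5. In the other direction, the sum of 8 junctional zone markers in WT libraries was 1637 to 2282 CPM on gd10.5 and 34228 to 36548 CPM on gd14.5, and that of 8 giant cell markers was 10088 to 14175 CPM on gd10.5 and 23272 to 30068 CPM on gd19.5. KO libraries had 954 to 13792 and 30257 to 35483 CPM of the junctional zone markers, and 8436 to 11898 and 21365 to 28361 CPM of the giant cell markers, on the same days. None of the NK cell, decidual stroma, junctional zone and giant cell markers was at 0 in every library of a group. In other lists some were, such as 1 labyrinth trophoblast marker and 2 neutrophil markers in WT gd10.5. In WT means from gd10.5 to gd19.5, endothelium markers fell from 1912 to 926 CPM and neutrophil markers from 116 to 26.4 CPM. Labyrinth trophoblast markers rose from 1051 to 2841 CPM, fetal red cell from 2050 to 3463, smooth muscle from 98.8 to 234 and macrophage from 590 to 867. KO means moved in the same directions. The part of all these markers in the fall of the cell cycle genes was not tested. Stage and composition cannot be told apart in these libraries.

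No member changed between KO and WT mice at any stage by edgeR. At gd10.5 the edgeR test called 0 of 40 members, against 0.00572% of all genes, with 0 members at an unadjusted p under 0.05, where 0.801% of all genes were, and 0 called by DESeq2. At gd14.5 the counts were 0, against 0.0166%, with 0 at an unadjusted p under 0.05, where 6.78% of all genes were, and 0 by DESeq2. At gd16.5 edgeR called 0 members, against 0.00586%, with 5 at an unadjusted p under 0.05 where 11.1% of all genes were, and DESeq2 called 1, *E2f2*. At gd19.5 edgeR called 0, against 0.115%, with 1 at an unadjusted p under 0.05 where 13.5% of all genes were, and DESeq2 called 0. A p that misses the threshold does not show that the genotypes were alike.

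The number of members that were lower in KO than in WT mice differed between stages. At gd10.5, 2 of 40 log2 fold changes were below 0 against 46.8% of all genes, with a median of 0.13 beside 0.01 over all genes. No member's 3 KO libraries lay wholly above or below the 3 WT libraries, which 1.83% and 2.35% of all genes did. At gd14.5, 33 of 40 were below 0 against 50.8% of all genes, with a median of -0.08 beside -0.0026, again without a member whose groups lay apart, beside 6.41% and 6.1% of all genes. At gd16.5, 30 of 40 were below 0 against 48.4% of all genes, with medians of -0.12 for replication, -0.26 for mitosis and -0.35 for the E2f genes, beside 0.01 over all genes. Then 6 members (*Bub1b*, *Tpx2*, *Kif11*, *Ube2c*, *E2f2* and *Ccne1*) had all KO libraries below all WT libraries and 1, *Mcm6*, had them above, beside 9.62% below and 8.11% above among all genes. At gd19.5, 17 of 40 were below 0 against 51.7% of all genes, with a median of 0.08, and 4 members lay above (*Mcm2*, *Mcm3*, *Mcm7* and *Cdt1*) and 2 below (*Cdk1* and *Cenpe*), beside 12.8% and 8.58%. Genes of 1 class tend to move together within a library, so the number with 1 sign carries no test.

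**Figure D5:**
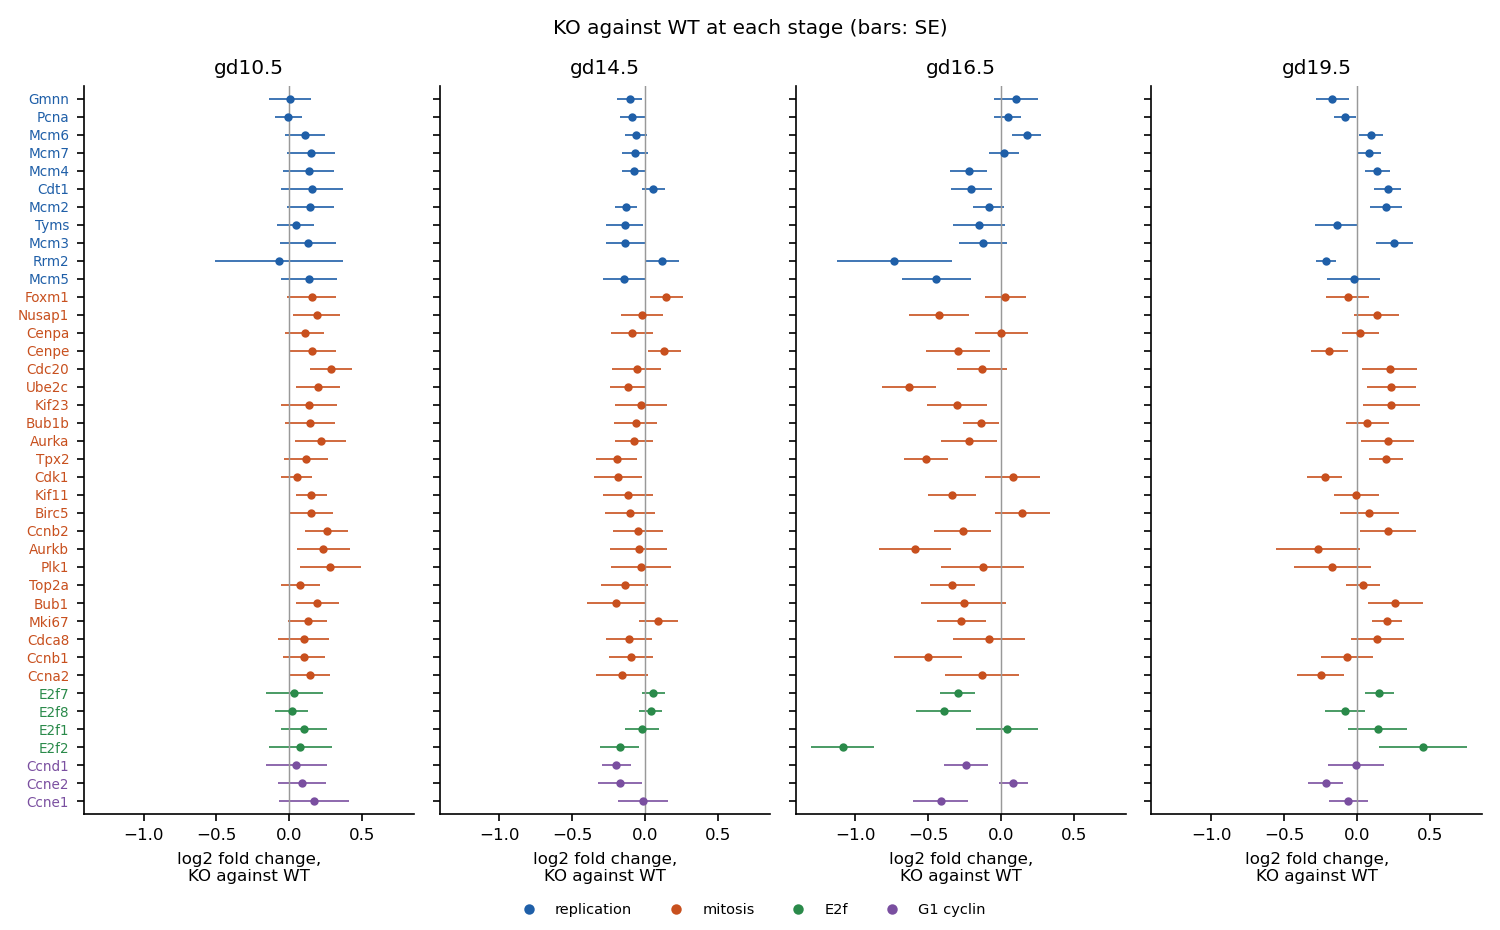
The log2 fold change of KO against WT mice for each of the 40 genes at each stage, with bars for the SE and genes coloured by class. Points lie close to 0 at gd10.5 and gd14.5, spread to the left at gd16.5 with E2f2 farthest at -1.09, and lie on both sides of 0 at gd19.5.

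At gd16.5 the 3 members with the smallest unadjusted p were *E2f2*, *Ube2c* and *Tpx2*. *E2f2* had 3.31, 2.697 and 2.24 CPM in WT and 1.34, 1.11 and 1.41 CPM in KO libraries, without overlap. Its log2 fold change was -1.09 (SE 0.22, unadjusted p = 0.00131, adjusted p = 0.354), with adjusted p from 0.042 (DESeq2) to 0.796 over the alternatives run. The study reports *E2f2* as lowered in KO mice at this stage, from these same libraries, so its place here is not independent evidence. By DESeq2 *E2f2* was called lower here, and by edgeR it was not called. The edgeR test called 1 of all 17071 genes tested at this stage, so hardly any gene passed it. *Ube2c* had 8.18, 7.47 and 6.37 CPM in WT and 5.38, 3.67 and 5.11 CPM in KO libraries, also without overlap, at -0.63 (SE 0.19, unadjusted p = 0.0104, adjusted p = 0.414). *Tpx2*, which brings Aurora A to the spindle, had 9.59, 10.9 and 8.90 CPM in WT and 6.62, 5.89 and 7.98 CPM in KO libraries, again apart, at -0.51 (SE 0.15, unadjusted p = 0.0103, adjusted p = 0.414). The replication class ranged from *Rrm2* at -0.73 (SE 0.40, unadjusted p = 0.104, adjusted p = 0.489), where WT replicate 3 alone was far above the rest, to *Mcm6* at 0.18 (SE 0.10, unadjusted p = 0.118, adjusted p = 0.502), and mitosis from *Ube2c* up to *Birc5* at 0.15 (SE 0.19, unadjusted p = 0.459, adjusted p = 0.744).

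At the same stage, KO libraries had 49741 to 53631 summed CPM of the 8 junctional zone markers against 30328 to 42166 in WT libraries, and 25333 to 29498 against 16813 to 24004 summed CPM of the 8 giant cell markers. In both lists the KO libraries lay above the WT libraries, where *E2f2*, *Ube2c* and *Tpx2* lay below. Decidual stroma markers, 8 in number, were wholly lower in KO libraries like these genes, at 3534 to 3987 against 4365 to 5119 summed CPM. So were 6 smooth muscle markers, at 187 to 232 against 253 to 285 summed CPM. Fetal red cell markers, 12 in number, summed to 9264, 6528 and 3856 CPM in WT replicates 1 to 3 and to 6752, 2523 and 4479 CPM in KO replicates 1 to 3, and the groups overlapped. NK cell markers, 12 in number, summed to 89.0 to 110.5 CPM in KO and 107 to 126 CPM in WT libraries, and the groups overlapped. Labyrinth trophoblast, endothelium, macrophage and neutrophil markers overlapped too, with lower means in KO than in WT libraries. The part of these cell types in the cell cycle values was not tested.

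At the other stages no member passed the test either. At gd10.5 the members with the smallest unadjusted p were *Cdc20* at 0.29 (SE 0.15, unadjusted p = 0.0936, adjusted p = 1), *Ccnb2* at 0.26 (SE 0.15, unadjusted p = 0.124, adjusted p = 1) and *Kif11* at 0.15 (SE 0.11, unadjusted p = 0.204, adjusted p = 1), all with overlapping libraries. The class extremes were *Cdt1* at 0.15 and *Rrm2* at -0.07 for replication and *Cdc20* and *Cdk1* at 0.05 for mitosis. *Rrm2* turned to 0.31 without KO gd10.5 replicate 2. At gd14.5 the members with the smallest unadjusted p were *Ccnd1* at -0.20 (SE 0.10, unadjusted p = 0.0795, adjusted p = 0.752), *Mcm2* at -0.13 (SE 0.08, unadjusted p = 0.112, adjusted p = 0.776) and *Tpx2* at -0.20 (SE 0.14, unadjusted p = 0.197, adjusted p = 0.818). The class extremes were *Rrm2* at 0.12, *Mcm5* at -0.14, *Foxm1* at 0.14 and *Bub1*, a kinase of the spindle checkpoint, at -0.20. At gd19.5 they were *Rrm2* at -0.21 (SE 0.07, unadjusted p = 0.0132, adjusted p = 0.258), *Cdt1* at 0.21 (SE 0.10, unadjusted p = 0.0532, adjusted p = 0.379) and *Mcm3* at 0.25 (SE 0.13, unadjusted p = 0.0729, adjusted p = 0.41). KO libraries had 10.2, 10.1 and 10.7 CPM of *Cdt1* and 8.78, 10.98 and 8.96 CPM of *Mcm3* against 8.53, 9.38 and 8.39 CPM of *Cdt1* and 8.76, 7.21 and 7.72 CPM of *Mcm3* in WT libraries, so the KO values lay wholly above, whereas those of *Rrm2* overlapped. *Rrm2* and *Mcm3* were also the extremes of the replication class. Mitosis genes at gd19.5 ran from *Aurkb* at -0.26 to *Bub1* at 0.26.

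The question whether the KO effect changed with stage was put to the interaction of genotype and stage in the fit of all 24 libraries. It called 0 of 40 members and 0 of all 19299 genes tested (0%) by edgeR, and 0 members by DESeq2. At an unadjusted p under 0.05 there were 3 members, where 7.23% of all genes were: *E2f2* (unadjusted p = 0.00234, adjusted p = 0.546), *Ube2c* (unadjusted p = 0.00491, adjusted p = 0.582) and *Tpx2* (unadjusted p = 0.0164, adjusted p = 0.645). In the step from gd10.5 to gd14.5 the 39 calls in both genotypes were 97.5% of the WT and 100% of the KO calls. Over all genes tested the shared calls were 81.2% and 85.9%. From gd14.5 to gd16.5 the 37 shared calls were 100% of WT and 94.9% of KO calls, beside 65.8% and 50.5% over all genes. WT and KO steps used different libraries.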

How the data were processed

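Bulk RNA-seq of the MFI was analysed from 1 table of gene read counts, 24 libraries in 8 groups of 3. Per the labels and the methods, the authors made stranded poly(A) libraries, sequenced paired ends, trimmed reads with Trim Galore 0.6.4, aligned them to GRCm38 with STAR 2.7.3a and deposited raw counts per gene from featureCounts (Subread 2.0.0), run with default settings. Columns were matched to samples, and replicates numbered, by the library names in the labels. The sample titles number the KO replicates differently, so that the same number can name another KO library there.

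Counts were tested with edgeR 4.0.16 in R 4.3.3 (TMM, filterByExpr, glmQLFit, glmQLFTest), with Benjamini-Hochberg adjustment over all genes tested and a threshold of 0.05. KO was compared with WT within each stage in 6 libraries, and stages within a genotype in a fit of 8 group means to all 24. DESeq2 1.42.0, other scalings and filters, a Y-linked covariate for fetal sex, a replicate block and the omission of each library were alternatives. The tests were checked on simulated counts. Replicate pairs differed by more than counting noise. A count of 0 would allow 0.0773 to 0.149 CPM (3 counts, counting error only).

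The members and lists were chosen with earlier results of these data known. Values in every library are given for 20 members fixed by name, and otherwise the highest and lowest replication and mitosis gene of each comparison, the 3 members with the smallest p between genotypes and regulators fixed by name. The *Mcm5* to *Mcm6* ratio, overlapping genes and members named as exceptions were picked after their values were seen. Promoters came from the RefSeq table of GRCm38.p6. CPM per kilobase used summed exon length.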

Additional observations from a re-analysis of the deposited data

How the results depend on the processing

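The falls before gd14.5, where *Ccnd1* rose, and before gd16.5 held in nearly every member under the alternatives run, and the last interval did not. Before gd16.5 the fewest WT calls were 32 in place of 37, without WT gd14.5 replicate 1. The WT calls of *E2f1* and *E2f7* in that interval were each lost in several of the alternatives. With an absolute log2 fold change over 1 also required, 22 members were called before gd16.5 in WT mice, and 1 before gd19.5 in each genotype. Scaling by total counts shifted the median of all genes by -0.13, -0.16 and 0.07 over the WT intervals and -0.13, -0.22 and 0.13 over the KO intervals (log2), and gave 4 calls in WT mice before gd19.5. In KO mice before gd19.5 that scaling lost *Cdk1* and gained *Mcm4*. For that interval, leaving out 1 library gave 1 to 5 calls in WT and 1 in every case in KO mice. DESeq2 called 39 members in WT mice before gd14.5, 11 before gd19.5, and 1 in KO against WT at gd16.5 (*E2f2*). A fit of the 12 KO libraries alone gave 1 call before gd19.5 in KO mice. The causes of these shifts were not tested.

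A replicate block gave 36 calls in WT mice before gd16.5, 6 before gd19.5 and 1 in KO mice before gd19.5. The numbers, which are those of the library names and for KO mice not those of the titles, are not known to pair the samples. Of 12 same-numbered WT and KO pairs, 6 correlated best with their own number, with r from -0.57 to 0.48. These included every pair of gd19.5 and none of gd10.5, and such correlations cannot settle whether samples were paired.

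Signs turned only in uncalled values. *Gmnn* before gd16.5 ran from -0.19 to 0.059 in WT mice when 1 library was left out, positive without WT gd16.5 replicate 3, and turned to -0.11 in KO mice with total-count scaling. In KO against WT at gd10.5, leaving out 1 library gave -0.055 to 0.31 for *Cdt1* and -0.029 to 0.12 for *Cdk1*, both negative without KO gd10.5 replicate 1, and -0.46 to 0.31 for *Rrm2*, positive without WT or KO gd10.5 replicate 2. The Y-linked covariate gave 0.34 for *Rrm2* at gd10.5. At that stage KO gd10.5 replicate 2 had 71.1 CPM of Y-linked genes, and no other library had more than 0.311 CPM. The covariate there all but marks that library, so this value is no separate check. At gd14.5 *Rrm2* ran from -0.017 to 0.25, negative without KO gd14.5 replicate 2. With 3 libraries a group, 1 library can decide a call near the threshold.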
